A study of Homo sapiens with 6 samples.

Results

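The microRNA genes measured in HEY cells, a human ovarian cancer cell line, upon PQBP1 knockdown were examined gene by gene. A gene was counted as a microRNA gene when its name began with MIR and a digit or with MIRLET, and host genes (names ending in HG) and antisense genes were left out. Of the 695 microRNA genes in the table, 77 were selected on their level, a mean of at least 0.3 FPKM over the 6 samples of both groups, and are called measurable here (11.08%). FPKM is the number of fragments divided by transcript length and by the mapped fragments of the sample, so that levels are per length. Of the others, 109 were listed at 0 in all 6 samples. Across all genes of the table, 45.13% reached the same level.

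The samples were 3 with a control hairpin (shNC) and 3 with a hairpin against PQBP1 (shPQBP1), an mRNA splicing factor. By the labels, every sample was taken at day 3, the shPQBP1 cells were induced with doxycycline (1 µg/ml), and the treatment of the shNC cells is given as none. A figure legend of the study also describes its PQBP1-depleted HEY cells as induced by doxycycline, for less time than day 3 implies. That difference is not explained. The labels do not say whether the shNC cells were left without doxycycline or only without induction of the PQBP1 hairpin, and taken as written, the hairpin and doxycycline cannot be told apart. By the study's methods, the PQBP1 hairpin was cloned into pGIPZ, a lentiviral vector, and infected cells were selected with puromycin. The study gives its control cells a matching control vector that it does not name, and whether the stable lines were single clones is not given in the sources used here. The series' design text calls the samples biological triplicates, without saying whether the cultures were separate, so the p-values measure the spread between these samples.

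A microRNA is made from a longer primary transcript. The nuclear enzyme DROSHA, with its partner DGCR8, cuts out a hairpin, XPO5 carries it to the cytoplasm with RAN, and DICER1 trims it to the mature RNA that an AGO protein uses to silence mRNAs that pair with its seed. Many microRNA genes lie inside introns or exons of a longer host gene and are transcribed with it. Poly(A) RNA was sequenced, which holds host and primary transcripts. Mature microRNAs are too short for such libraries, so a value at a microRNA gene is read here as fragments of longer RNA over the hairpin, and not as a level of mature microRNA.

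The mature sequences of the microRNA genes that the results turn on are printed first, from the RefSeq table (GRCh38.p14), with the seed, bases 2 to 8, in capitals. MIR30A was the gene with the largest difference between the groups, and its seed is shared with the RNA of MIR30C2, a neighbour in the same host gene.

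miR-30a-5p: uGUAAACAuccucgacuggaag
miR-30c-5p (MIR30C2): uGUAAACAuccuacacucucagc
miR-30a-3p: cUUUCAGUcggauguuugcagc

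MIR221 and MIR222 lie in 1 host transcript and also share a seed.

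miR-221-3p: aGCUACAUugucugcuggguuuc
miR-222-3p: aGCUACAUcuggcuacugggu

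The next genes were, with MIR30A, MIR221 and MIR6859-1, those at an unadjusted p under 0.05, and no 2 of the RNAs shown for them have a seed in common.

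miR-6752-5p: gGGGGGUGuggagccagggggc
miR-5581-5p: aGCCUUCCaggagaaauggaga
miR-6827-5p: uGGGAGCCaugagggucugugc
miR-4737: aUGCGAGGaugcugacagug
miR-647: gUGGCUGCacucacuuccuuc
miR-590-5p: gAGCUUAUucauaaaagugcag
miR-6506-5p: aCUGGGAUgucacugaauauggu

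Among the 77 genes, 70 had a mature sequence in that table. Their 113 mature sequences outside chromosome 8 held 105 different seeds, and 4 seeds occurred in more than 1 gene. All of the 8 genes with a shared seed were copies of MIR6859, MIR1244 or MIR3179, whose hairpins are near-identical, so fragments could be split among the copies and their values are uncertain.

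The knockdown was seen in PQBP1 itself, at 7.18, 6.67 and 6.93 FPKM in the shNC samples and 1.68, 1.72 and 1.44 FPKM in the shPQBP1 samples (log2 fold change -2.04, SE 0.10, limma adjusted p = 0.00197, exact permutation p = 0.1, the smallest possible with 3 against 3). Keratin 7, 8 and 18, VIM and PAX8 were present in all samples. Of the 11 ovarian and epithelial markers, CDH1, MUC16 and EMX2 were at or near 0 and were not tested. Of the 8 tested, 0 passed an adjusted p of 0.05 in limma, against 2.42% of all genes tested. At an unadjusted p under 0.05 there were 4 (3 higher and 1 lower), against 22.3% of all genes tested (11.5% higher and 10.8% lower). Of the 4 mesenchymal markers, FN1 rose (log2 fold change 1.72, SE 0.09, limma adjusted p = 0.00198), and the summed level was 1182 to 1295 FPKM in shNC and 1432 to 1532 FPKM in shPQBP1. Most of that sum was VIM, with means of 1174 and 1296 FPKM. VIM, ZEB1 and CDH2 had log2 fold changes of 0.143, 0.845 and 0.128, and none passed (limma adjusted p = 0.239, 0.166 and 0.378). Of the 3 leukocyte markers, PTPRC was at 0 and CD68 between 9.12 and 21.16 FPKM. Of the 3 endothelial markers, VWF was near 0 and CDH5 between 2.11 and 3.64 FPKM (log2 fold change 0.44, limma adjusted p = 0.162). PECAM1, below the minimum level, was at 0.23 to 0.25 FPKM in shNC and at 0.02 to 0.06 FPKM in shPQBP1. The part of these markers in the results was not tested. The depth of the samples is unknown, since the table holds no counts. Total FPKM ranged from 278285.8 to 318484.3, and 1 sample, shNC 1, stood apart. Its correlation across genes with the other 5 samples was 0.939 to 0.961, where each of the others reached at least 0.968 with some sample. It was also the lowest sample for 26 of the 77 microRNA genes, against 7 to 14 in each of the others. Ties were given to the sample listed first, and shNC 1 is listed first. Its median over the 77 genes, 0.81 FPKM, lay within those of the others (0.74 to 0.95 FPKM).

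MIR30A stood out from the other microRNA genes. It was singled out with its difference between these groups known, so its values are given as a description without a test. MIR30A was at 0.08, 0.15 and 0.11 FPKM in the shNC samples and at 4.01, 4.16 and 3.46 FPKM in the shPQBP1 samples. All 3 shPQBP1 samples lay far above all 3 shNC samples, and both groups were tight. The group means were 0.113 ± 0.0351 and 3.88 ± 0.369 FPKM (SD, n = 3), a 34.2-fold ratio, and the difference on the log2(FPKM + 0.1) scale was 4.23 (SE 0.18). MIR30A passed the minimum level only through the shPQBP1 samples.

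MIR30A (ENSG00000207827, hg38, chr6:71403551-71403621, minus strand) lies in an intron of LINC00472, a long non-coding RNA gene at chr6:71187161-71420745 on the same strand. The nearest annotated exon of the host is 502 bases away. LINC00472 was at 0.49, 1.23 and 1.27 FPKM in the shNC samples and at 1.88, 1.6 and 1.51 FPKM in the shPQBP1 samples. The groups of LINC00472 did not overlap, but the difference was small beside that of MIR30A, 1.67-fold in the means (0.997 ± 0.439 and 1.66 ± 0.193 FPKM, SD, n = 3), and did not pass the test (log2 fold change 0.78, SE 0.34, limma adjusted p = 0.244). Without shNC 1, the lowest sample of LINC00472, its log2 fold change was 0.38, and over the 16 alternatives it ran from 0.38 to 0.99. MIR30A was below its host in every shNC sample and above it in every shPQBP1 sample. The log2 ratio of MIR30A to LINC00472 was -1.71, -2.41 and -2.71 in the shNC samples and 1.05, 1.33 and 1.15 in the shPQBP1 samples, a difference of 3.45 (SE 0.31). The size of that difference rests on the pseudocount, since the shNC values of MIR30A are near 0.1: it was 1.69 with a pseudocount of 1 and 4.17 with a pseudocount of 0.01.

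MIR30C2 (chr6:71376960-71377031, minus strand), which makes miR-30c with the seed printed above, overlaps an exon of the same host 26519 bases from MIR30A. It did not reach the minimum level and was at 0, 0.01 and 0.05 FPKM in the shNC samples and at 0.08, 0 and 0.10 FPKM in the shPQBP1 samples. The 2 groups overlapped. The microRNA gene with the same seed in the same host stayed at or below 0.10 FPKM in the samples where MIR30A was at 3.46 FPKM or more. MIR30C2 lies in an exon of the host and MIR30A in an intron, so their places in the host are not alike. The pGIPZ vector named in the methods carries its hairpin inside sequence of the human miR-30 primary transcript. In its usual form it does not respond to doxycycline, which the labels give for these samples, so whether the sequenced cells carried it is not settled by the sources used here. How many of the fragments counted at MIR30A came from a vector was not tested, and the FPKM table cannot tell vector and genomic fragments apart.

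**Figure D1:**
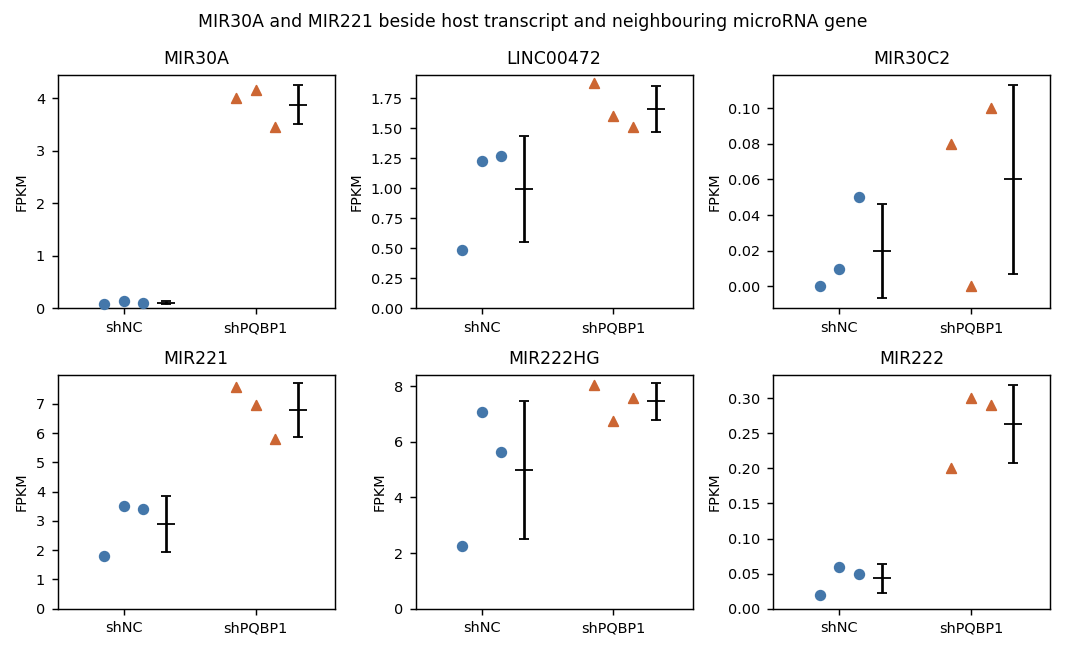
FPKM of MIR30A, its host LINC00472 and MIR30C2 (upper row) and of MIR221, its host MIR222HG and MIR222 (lower row) in the 3 shNC samples (circles) and 3 shPQBP1 samples (triangles), with the mean ± SD of each group (black). The group means of MIR30A are 0.113 and 3.88 FPKM, and those of LINC00472 are 0.997 and 1.66 FPKM.

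MIR221, whose RNA belongs to the miR-221/222 family, known for repression of the cell cycle inhibitor CDKN1B, was the next microRNA gene by p. MIR221 (ENSG00000207870, chrX:45746157-45746266, minus strand) was at 1.79, 3.51 and 3.41 FPKM in the shNC samples and at 7.59, 6.97 and 5.79 FPKM in the shPQBP1 samples. Every shPQBP1 sample was above every shNC sample, but the difference missed the threshold over all genes (log2 fold change 1.25, SE 0.27, limma unadjusted p = 0.00319, adjusted p = 0.0708). Without shNC 1, its lowest sample, the difference was 0.94 and the adjusted p 0.039, and over the 16 alternatives the adjusted p ranged from 0.039 to 0.239.

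MIR221 overlaps part of an exon of MIR222HG, its host transcript at chrX:45745210-45770274. MIR222HG was at 2.25, 7.06 and 5.63 FPKM in the shNC samples and at 8.04, 6.74 and 7.57 FPKM in the shPQBP1 samples. The host showed the same low value in shNC 1 and its groups overlapped (log2 fold change 0.72, SE 0.40, limma adjusted p = 0.333). The log2 ratio of MIR221 to MIR222HG differed by 0.53 between the groups (SE 0.23, exact permutation p = 0.2, n = 3 and 3, smallest possible p 0.1). MIR222, in the same transcript, was at 0.02, 0.06 and 0.05 FPKM in the shNC samples and at 0.20, 0.30 and 0.29 FPKM in the shPQBP1 samples, and did not reach the minimum level.

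Over all 77 measurable microRNA genes, 1 passed an adjusted p of 0.05, against 2.42% of the 14748 genes tested. That gene was MIR30A, which was singled out beforehand, so the count adds nothing to it. No other microRNA gene came below an adjusted p of 0.0708, the value of both MIR221 and MIR6752. At an unadjusted p under 0.05 there were 10 microRNA genes (12.99%, 5 higher and 5 lower in shPQBP1), against 22.3% of all genes tested (11.5% higher and 10.8% lower). The study's methods set a threshold of a fold change above 2 with unadjusted p below 0.05. Of the 77 microRNA genes, 8 passed it, 3 higher and 5 lower, where 2.53% of all genes tested passed (1.5% higher and 1.03% lower). Among the 8, MIR30A, MIR6506 and MIR6752 reached the minimum level in 1 group only. The spread of the microRNA genes was also wider, as given below, and the count is not read as a result about them. The groups did not overlap in 9 (6 higher, 3 lower), against 32.2% of all genes tested (16.6% higher and 15.6% lower). The median log2 fold change of the 77 was -0.03, and that of all genes tested was 0.03. In number, 36 lay above 0 and 41 below.

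Part of these counts is set by the way the genes were chosen. In 63 microRNA genes the mean reached 0.3 FPKM in both groups. In 8 it did so only in shNC (MIR6506, MIR378J, MIR6752, MIR664B, MIR1226, MIR1206, MIR937 and MIR2277) and in 6 only in shPQBP1 (MIR30A, MIR635, MIR4677, MIR3179-3, MIR1307 and MIR6859-4). Those 14 had to differ in the mean in order to be in the list. Among the 63, 7 were at an unadjusted p under 0.05 in limma (4 higher, 3 lower, 11.11%). Of all genes tested, 22.3% were (11.5% higher, 10.8% lower). At an adjusted p of 0.05, limma called 0 of the 63, against 2.42% of all genes tested. The median log2 fold change of the 63 was -0.03. Just inside the minimum were MIR6859-4 and MIR6838 at 0.322 FPKM and MIR1307 at 0.333 FPKM, and just outside were MIR3192 at 0.298 FPKM and MIRLET7I at 0.295 FPKM.

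**Figure D2:**
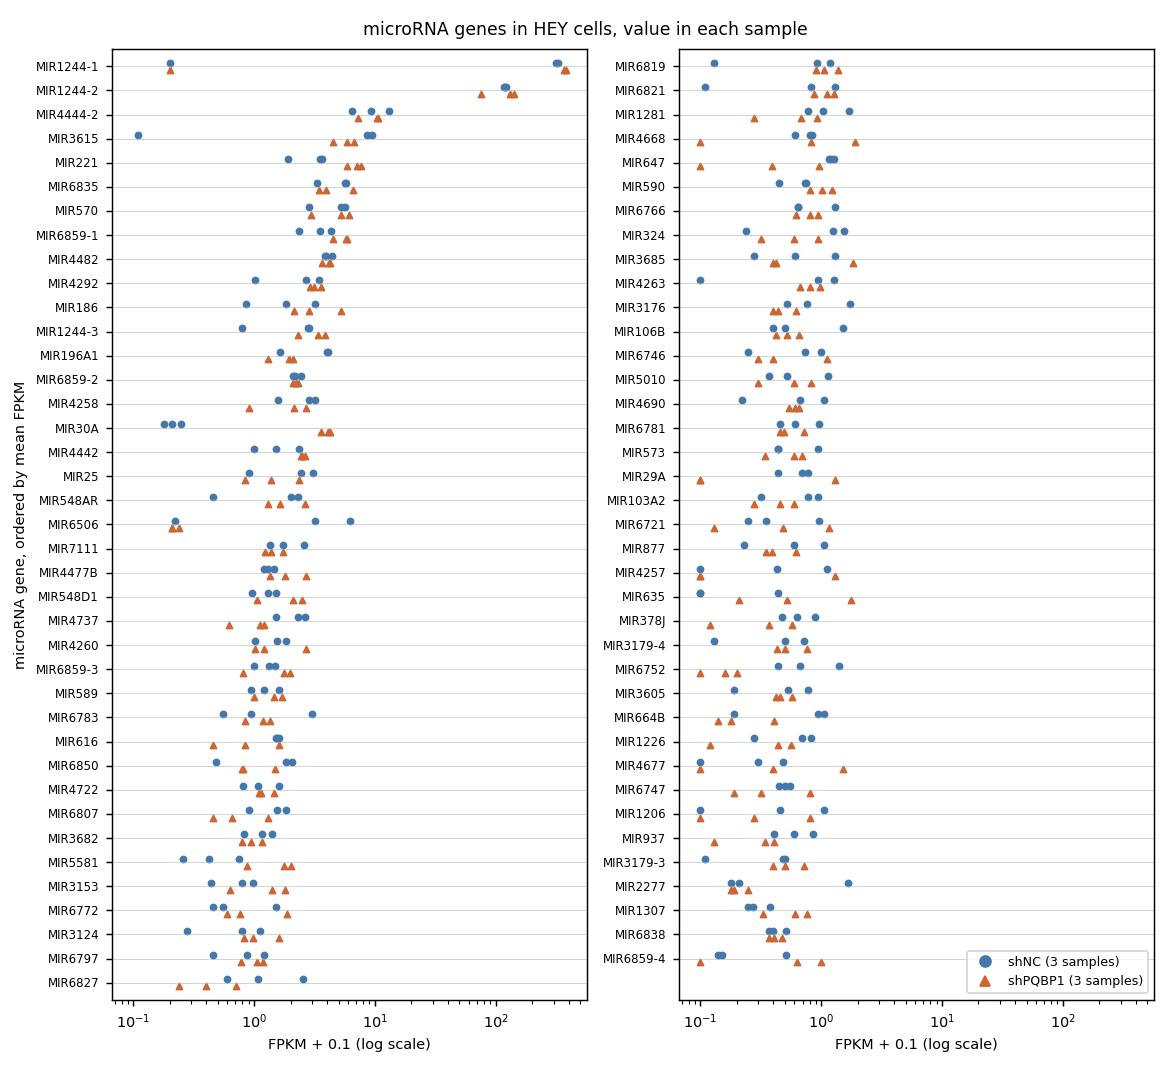
FPKM + 0.1 of the 77 microRNA genes on a log axis, ordered by mean, in the 3 shNC samples (circles) and 3 shPQBP1 samples (triangles). MIR30A shows 2 separate and tight groups, while the groups of 68 genes overlap, and single values near the left edge mark samples at or close to 0.

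MIR6752 was at 0.34, 1.31 and 0.57 FPKM in the shNC samples and at 0.10, 0 and 0.06 FPKM in the shPQBP1 samples. The groups did not overlap, and the difference missed the adjusted threshold (log2 fold change -2.34, SE 0.51, limma adjusted p = 0.0708, range over the alternatives 0.0539 to 0.258).

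MIR5581, in an intron of MEAF6 (a subunit of histone acetyltransferase complexes), was at 0.16, 0.65 and 0.32 FPKM in the shNC samples and at 1.93, 0.77 and 1.65 FPKM in the shPQBP1 samples. Its groups did not overlap (log2 fold change 1.75, SE 0.48, limma adjusted p = 0.116). MEAF6 was level, from 13.51 to 15.57 FPKM and from 11.73 to 14.94 FPKM in the 2 groups.

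MIR4737, in an exon of HEATR6, was at 2.52, 1.42 and 2.22 FPKM in the shNC samples and at 1.10, 1.01 and 0.52 FPKM in the shPQBP1 samples. The groups did not overlap (log2 fold change -1.16, SE 0.32, limma adjusted p = 0.118), nor did those of HEATR6, whose difference was smaller (log2 fold change -0.31, limma adjusted p = 0.165).

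MIR647, in an intron of UCKL1 (a uridine kinase-like enzyme gene), was at 1.10, 1.17 and 1.07 FPKM in the shNC samples and at 0.29, 0.85 and 0 FPKM in the shPQBP1 samples. The shNC values were tight and the shPQBP1 values spread widely below them (log2 fold change -1.86, SE 0.77, limma adjusted p = 0.224). UCKL1 was also lower in shPQBP1, with groups that did not overlap (log2 fold change -0.395, limma adjusted p = 0.105). MIR590, in an intron of EIF4H (a translation initiation factor), was at 0.35, 0.65 and 0.64 FPKM in the shNC samples and at 1.12, 0.70 and 0.92 FPKM in the shPQBP1 samples (log2 fold change 0.67, SE 0.27, limma adjusted p = 0.224). Its groups did not overlap, though the highest shNC value and the lowest shPQBP1 value were only 0.65 and 0.70 FPKM. EIF4H went the other way, also with groups that did not overlap (log2 fold change -0.238, limma adjusted p = 0.186).

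The remaining 3 genes at an unadjusted p under 0.05 were MIR6859-1, MIR6827 and MIR6506. MIR6859-1, in an intron of the pseudogene WASH7P, was at 2.23, 3.39 and 4.26 FPKM in the shNC samples and at 5.81, 5.63 and 4.40 FPKM in the shPQBP1 samples (log2 fold change 0.70, SE 0.25, limma adjusted p = 0.173). Its copy MIR6859-2 was level, from 2.01 to 2.33 FPKM over all 6 samples, and fragments cannot be assigned between the copies with certainty. MIR6827, the gene with no position in GENCODE release 44, was at 2.43, 0.50 and 0.98 FPKM in the shNC samples and at 0.61, 0.14 and 0.30 FPKM in the shPQBP1 samples, and its groups overlapped (log2 fold change -1.53, SE 0.62, limma adjusted p = 0.217).

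Levels per length ranged widely among the microRNA genes. MIR1244-1 had a mean of 231.3 FPKM and MIR1244-2 of 117.1 FPKM, and no other microRNA gene reached 10 FPKM. The next were MIR4444-2 at 9.40, MIR3615 at 5.77, MIR221 at 4.84, MIR6835 at 4.67, MIR570 at 4.58, MIR6859-1 at 4.29, MIR4482 at 3.94 and MIR4292 at 2.70 FPKM. None of these 10 passed an adjusted p of 0.05. From MIR3615 to MIR4482, neighbours in this order differed by less than the spread between their samples. MIR4444-2 showed a log2 fold change of 0.01 (SE 0.28) and MIR4482 of -0.03 (SE 0.11), the latter between 3.52 and 4.34 FPKM in all 6 samples.

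Low values were found at several microRNA genes known for abundant mature RNAs in many epithelial cells. MIR21 was at 0.05 FPKM in each shNC sample and at 0.11, 0.12 and 0.09 FPKM in the shPQBP1 samples. MIR22 had a mean of 0.115 FPKM and MIR92A1 of 0.07 FPKM, and MIR100 was listed at 0 throughout. The 7 let-7 genes in the table had means from 0.0233 to 0.295 FPKM, and none was measurable. MIR25 and MIR106B, which lie with MIR93 in an intron of MCM7 (a subunit of the replicative helicase), were measurable. MIR25 was at 2.97, 0.80 and 2.32 FPKM in shNC and at 0.74, 1.27 and 2.23 FPKM in shPQBP1, with overlapping groups (log2 fold change -0.44, SE 0.56, limma adjusted p = 0.655). MIR106B was at 1.40, 0.40 and 0.30 FPKM in shNC and at 0.42, 0.32 and 0.56 FPKM in shPQBP1 (log2 fold change -0.35, SE 0.52, limma adjusted p = 0.702). MCM7 had means of 31.4 FPKM in shNC and 28.6 FPKM in shPQBP1.

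Some microRNA genes took values near 0 in single samples and high values in the others of the same group. In 14 genes, a group had a highest value of at least 1 FPKM that was at least 10 times its lowest. MIR1244-1 (chr2:231713314-231713398), which lies in an exon of PTMA, the gene of prothymosin alpha, was at 0.10, 315.07 and 326.43 FPKM in the shNC samples and at 368.15, 0.10 and 378.24 FPKM in the shPQBP1 samples. One sample of each group thus lay far below its fellows, by 3264-fold in shNC and 3782-fold in shPQBP1 against the highest. PTMA did not show this, at 341.93, 231.69 and 269.35 FPKM and at 277.20, 278.52 and 206.72 FPKM in the same samples. For MIR1244-1 the SE of the log2 fold change was 4.04, so that no difference could be measured.

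MIR3615 (chr17:74748613-74748699), which overlaps the start of SLC9A3R1 (named NHERF1 in GENCODE release 44, a scaffold protein gene), was at 9.36, 0.01 and 8.47 FPKM in the shNC samples and at 5.81, 6.55 and 4.39 FPKM in the shPQBP1 samples. The value near 0 was in shNC 2, where SLC9A3R1 was highest at 7.18 FPKM. MIR6506 (chr16:15611030-15611095), in an exon of MARF1, was at 3.08, 6.14 and 0.12 FPKM in the shNC samples and at 0.11, 0.14 and 0.11 FPKM in the shPQBP1 samples. The fitted log2 fold change of -2.90 (SE 1.19, limma adjusted p = 0.221) came from 2 shNC samples, and shNC 3 was at the level of the 3 samples with the PQBP1 hairpin. MIR6506 reached the minimum level only through the shNC samples, and leaving out shNC 3 removes the control that was like the shPQBP1 samples. The fit without it (log2 fold change -4.34, limma adjusted p = 0.0236) is therefore no support for a difference. MARF1 was at 3.60, 4.07 and 4.13 FPKM in shNC and at 4.81, 5.52 and 5.29 FPKM in shPQBP1, in the opposite direction (log2 fold change 0.40, SE 0.10, limma adjusted p = 0.103).

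**Figure D3:**
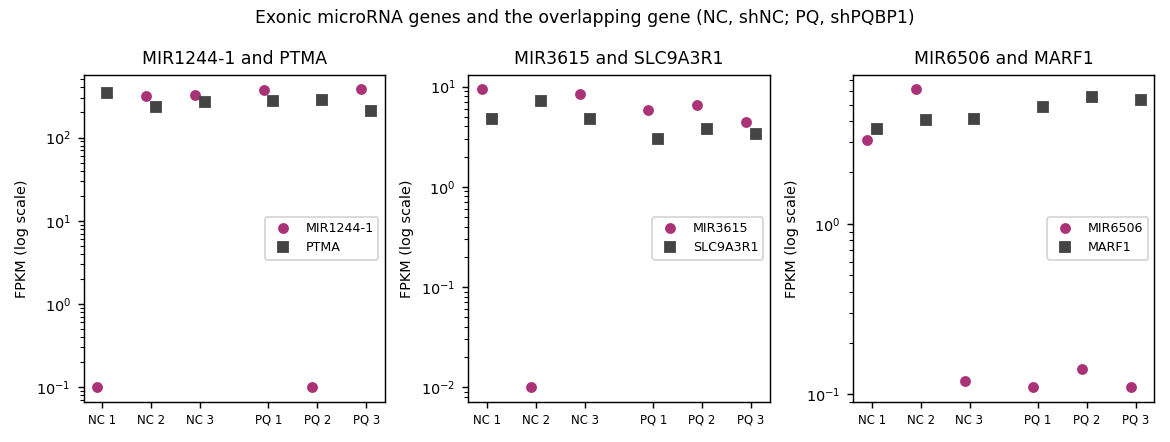
FPKM on a log axis of 3 microRNA genes (circles) and of the overlapping protein-coding gene (squares) in each shNC sample (NC) and shPQBP1 sample (PQ). MIR1244-1 is at 0.10 FPKM in 1 sample of each group while PTMA stays between 206.72 and 341.93 FPKM, and MIR3615 and MIR6506 show like jumps.

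This spread was general among the microRNA genes. The median residual SD of log2(FPKM + 0.1) within groups was 0.756 for the 77 genes, 0.195 for all genes tested and 0.221 for the 11012 other genes with a mean under 10 FPKM. These sets were not matched in level. A mean of at least 1 FPKM was reached by 32 of the 77 genes, against 11413 of the 14748 genes tested. Other short genes, 279 with a transcript under 200 bases, also had a wide spread, with a median of 0.579. Of these, 19 (6.81%) passed an adjusted p of 0.05 and 67 (24.01%) an unadjusted p of 0.05. The microRNA genes are 54 to 149 bases long, with a median of 76.5 bases. With n = 3 per group, a p that missed the threshold at this spread does not show that a gene did not differ.

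The measurable microRNA genes differed in position from the other microRNA genes of the table. Of the 76 with a position, on 20 chromosomes, 48 (63.16%) lay in an intron of a longer gene on the same strand, 7 (9.21%) within an exon and 10 (13.16%) partly in an exon. Among the 617 other microRNA genes with a position, 293 (47.49%) lay in an intron, 212 (34.36%) within an exon and 42 (6.81%) partly in an exon. A further 8 measurable genes (10.53%) had no host on either strand that held them. The shares are a description, since the level chose the genes.

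For 63 microRNA genes the host gene was itself tested, in 62 hosts. The host had the higher mean in 60 pairs, by a median of 15.1-fold. The 3 exceptions were MIR30A, MIR570 in MUC20-OT1 (4.58 against 0.835 FPKM) and MIR4257 in ADAMTSL4 (0.427 against 0.358 FPKM). MIR570 was nonetheless level between the groups (log2 fold change 0.04, SE 0.36). Thus MIR30A was the exception only in the shPQBP1 samples.

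Hosts and microRNA genes were compared within each sample. limma called 0 of the 62 hosts at an adjusted p of 0.05, against 2.42% of all genes tested, and 18 were at an unadjusted p under 0.05 (5 higher, 13 lower), against 22.3% of all genes tested (11.5% higher, 10.8% lower). The fold change of the microRNA gene had the sign of that of its host in 41 of the 63 pairs. The log2 ratio of microRNA gene to host reached the smallest exact permutation p of 0.1 in 7 pairs (11.11%), a share close to that p itself, and after adjustment over the pairs the lowest p was 0.727, so that no pair could pass. In 4 of the 7 the ratio was higher in shPQBP1 (MIR30A, counted here only as a description, MIR5581, MIR6821 and MIR590), and in 3 it was lower, MIR6506 and MIR4737 among them. The difference in ratio was 1.85 (SE 0.58) for MIR5581 and -3.29 (SE 1.5) for MIR6506, beside 3.45 for MIR30A. MIR30A and MIR6506 reached the minimum level in 1 group only, so their ratios were partly set by the choice of genes. The same holds for any other pair of this kind among the 7.

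**Figure D4:**
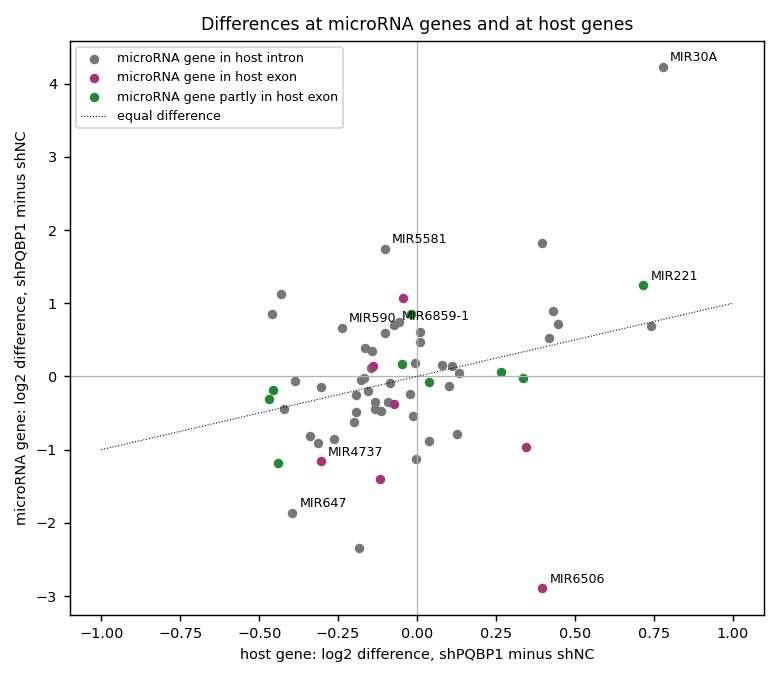
log2 fold change (shPQBP1 minus shNC, on log2(FPKM + 0.1)) of 63 microRNA genes against that of their host genes, coloured by the place of the microRNA gene in its host, with a dotted line where both are equal. The hosts lie within 1 of 0 on the log2 scale, while MIR30A is at 4.23 and MIR6506 at -2.90.

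The genes that make and use microRNAs were read from a list of 31, of which 29 were tested. One was called, lower (3.45%, against 2.42% of all genes tested), and the median log2 fold change was -0.04. RAN, the GTPase that loads XPO5, fell from 104.92, 130.02 and 109.06 FPKM in the shNC samples to 73.40, 60.61 and 52.38 FPKM in the shPQBP1 samples (log2 fold change -0.89, SE 0.15, limma adjusted p = 0.038). It has a general part in nuclear transport beside its part in microRNA export. The call was lost when any 1 sample was left out. The 4 others of largest mean, the RNA-binding proteins and helicases HNRNPA1, HNRNPA2B1, DDX5 and DDX17, had log2 fold changes of -0.04, 0.17, -0.25 and 0.04, and none passed. The core enzymes, named for their role after the values were seen, did not pass. DROSHA was between 5.76 and 6.63 FPKM in all samples (log2 fold change 0.00, SE 0.09) and DGCR8 between 4.90 and 5.54 FPKM. DICER1 showed a log2 fold change of 0.25 (SE 0.30), XPO5 of -0.17 (SE 0.09) and AGO2 of -0.19 (SE 0.09). LIN28A and LIN28B, which block let-7 processing, were at or below 0.01 FPKM.

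The host transcripts of microRNAs named as such, with LINC00472, made a list of 43, of which 19 were tested. limma called 0 at an adjusted p of 0.05, against 2.42% of all genes tested, and 2 were at an unadjusted p under 0.05, both higher, where 11.5% of all genes tested were higher. These were MIR4453HG, at 0.86, 0.83 and 0.80 FPKM in shNC and at 1.38, 1.3 and 1.34 FPKM in shPQBP1 (log2 fold change 0.63, SE 0.12, limma adjusted p = 0.053), and MIR181A2HG (log2 fold change 0.99, SE 0.36, limma adjusted p = 0.182). The median of the 19 was 0.20, against 0.03 over all genes tested. The 4 of largest mean, MIR222HG, MIR22HG, MIR4435-2HG and MIR503HG, had log2 fold changes of 0.72, -0.35, -0.11 and -0.11, and none passed.

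Genes generally described as miR-30 targets were a list of 19, of which 17 were tested. The list was chosen with earlier results of these data known, so its counts are a description. Of the 17 genes, 2 were called, both higher (11.8%, against 1.46% of all genes tested called in that direction), and 0 were called lower, where 0.956% of all genes tested were. At an unadjusted p under 0.05, limma had 5 higher and 0 lower, where 11.5% of all genes tested were higher and 10.8% lower. The median log2 fold change was 0.14. ITGB3, an integrin subunit, rose from 3.63, 3.01 and 3.41 FPKM in shNC to 6.55, 7.71 and 8.08 FPKM in shPQBP1 (log2 fold change 1.13, SE 0.12, limma adjusted p = 0.0163). LOX, which crosslinks collagen, rose from 11.88, 15.17 and 14.01 FPKM to 22.62, 22.75 and 23.50 FPKM (log2 fold change 0.75, SE 0.11, limma adjusted p = 0.0278). The number called was 0 when shNC 2, shNC 3, shPQBP1 2 or shPQBP1 3 was left out, 1 without shPQBP1 1 and 4 without shNC 1. The 4 others of largest mean, VIM, NT5E, CCN2 and TWF1, had log2 fold changes of 0.14, 0.59, 0.36 and 0.52, and none passed.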

How the data were processed

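Poly(A) RNA of 6 HEY samples was read as Illumina read pairs. The submitters' processing notes and the study's methods name hg38, HISAT2 (version 2.2.0) for mapping, SAMtools (version 1.9) for sorting, StringTie (version 1.3.0) for transcripts, and edgeR for the group comparison. The authors deposited 1 table of FPKM per gene and sample, rounded to 2 decimals. Its fold changes and p-values of the authors' comparison were not used. The annotation release, strand setting and FPKM settings are not given in the sources used here, so fragments of host, antisense partner and microRNA gene may not be told apart. FPKM corrects for length but is imprecise for genes shorter than a fragment. The low values showed no steps of whole reads, as tested per sample on 498 to 562 genes of 1 exon (strongest step 0.0908 to 0.140, where 1 is exact), so no count test was run and depth is unknown.

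Genes whose mean reached 0.3 FPKM (14748) were tested on log2(FPKM + 0.1) in limma 3.58.1 under R 4.3.3 (lmFit, then eBayes allowing the variance to follow the mean). Tests were two-sided and adjusted by Benjamini-Hochberg over all these genes. The pseudocount understates changes of low genes. Ratios to hosts were compared with two-sided exact permutation tests (Python version 3.11.15, scipy version 1.17.1). Positions and hosts came from GENCODE release 44, possibly not the release the authors used. The values of 1 host gene are not reported here. The steps were tested on simulated data. The numbers of same-numbered samples were not taken as pairs (correlations of deviations -0.145, -0.106 and -0.000211).

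The microRNA genes and lists were chosen with earlier results of these data known. Named were MIR30A, LINC00472 and PQBP1, and genes of the miR-30, let-7, miR-17-92, miR-21, miR-22, miR-31, miR-100 and miR-221 groups. Also named were the microRNA genes called, the 10 of highest mean, the largest differences at an unadjusted p under 0.05, and those measurable in 1 group only. The hosts of these genes fell under the same rule, but only some of them are named here. From each list, those called and up to 4 others of largest mean were named. The core processing enzymes, the 2 host transcripts at an unadjusted p under 0.05 and the cell type markers were named beside this rule, after their values were seen. Alternatives were other minimum levels, pseudocounts of 1 and 0.01, median-of-ratios scaling, quantile normalization, no trend, a replicate block, removal of trends on GC content and length, and each sample left out.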

Additional observations from a re-analysis of the deposited data

How the results depend on the processing

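Of the 77 microRNA genes, the number at an adjusted p under 0.05 was 1, became 2 with the trend on GC content and length removed (MIR221 joined, log2 fold change 1.38, adjusted p = 0.0475), and ran from 1 to 2 with each sample left out. With the replicate block, alone or with the GC and length trend removed, it was 0. The numbers do not pair the samples, and by construction the block leaves fewer residual degrees of freedom. MIR6827 has no GC content here and was left out of the corrected fits. At an unadjusted p under 0.05, limma with the block had 13 microRNA genes, and 14 with the GC and length trend also removed. The share of all genes at that p was not worked out for these fits, so these counts are not read as a result. Over all genes tested the number called was 357 (216 higher, 141 lower), and was 190 without a filter, 841 (419 higher, 422 lower) with the GC and length trend removed, 0 with the replicate block, and 32 (without shPQBP1 3) to 389 (without shNC 1) with each sample left out. The number past the threshold of the methods, 8, was 3 at a mean of at least 1 FPKM, 2 with a pseudocount of 1 and 5 without the mean-variance trend. The difference in ratio of MIR30A to LINC00472, 3.45, was 1.69 with a pseudocount of 1, 4.17 with a pseudocount of 0.01 and 4.02 with the GC and length trend removed, with or without the replicate block. PQBP1 was at -2.04 (limma adjusted p = 0.091) with the replicate block and at -1.91 (limma adjusted p = 0.0654) with the block and the GC and length trend removed. Among processing genes 1 was called, but 0 without a filter, without the trend and with the replicate block (either way), 2 with the GC and length trend removed, and 0 with any 1 sample left out. Of miR-30 target genes 2 were called, 4 with quantile normalization or with the GC and length trend removed, 0 with the replicate block (either way), and 0 to 4 with each sample left out. Of host transcripts 1 was called without the mean-variance trend, and 0 otherwise. The FPKM table gives no depth, which limits what can be said of genes of a few fragments.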
